A study of Mus musculus with 3 samples.

Results

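The non-Hox developmental transcription factors were taken from the count tables by name. Every row whose symbol opened with Pax, Tbx, Gata, Irx, Dlx, Nkx, Foxa, Foxc, Foxd, Foxf, Foxl, Msx, Pitx, Isl, Hand, Twist, Alx, Prrx, Barx, Cdx, Gsx, Onecut, Pou3f, Pou4f or the stem of Six4 followed by a digit was a member, except Pax2 and Pax6. The 62 members described here, of 16181 genes listed, were 60 genes for transcription factors and 2 antisense RNAs (Foxl2os and Pax6os1). The rule reads names alone.

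The data were single-cell Drop-seq counts from the cerebella of 3 mice at postnatal day 7 (P7), 1 library per mouse. All 3 mice were Math1-Cre/Eed fl/fl (Eed cKO), that is, they carried loxP-flanked Eed alleles and a Cre transgene driven by the Atoh1 (Math1) promoter, which in the cerebellum acts in cerebellar granule neuron progenitors (CGNPs). EED is a core subunit of Polycomb Repressive Complex-2 (PRC2), so the complex was targeted in CGNPs and in the granule neurons (CGNs) that descend from them, while interneurons, glia and vascular cells of the same cerebella lay outside the Cre lineage and served here as the comparison within each mouse. No mouse with intact Eed was analysed here, so no value below compares genotypes.

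PRC2 places the repressive mark H3K27me3 on chromatin, and genes for developmental transcription factors are among its best known targets. The families described here set up positional and cell type programs in the embryo: SIX4 and BARX2 act in muscle precursors, ISL1 and POU4F1 in sensory and motor neurons, PAX3 in somites and the dorsal neural tube, DLX factors in forebrain interneurons and the jaw, and GATA4, HAND2 and NKX2-5 in the heart.

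The promoters of 4 members on which the results turn are shown because each gene was called in at least 1 comparison below and had a single annotated start in the sequence table. Each run is the 250 bases before and the 50 bases after the RefSeq start, on the gene's strand, in build GRCm38.p6, with CpG dinucleotides, the letters that CpG islands are made of, in capitals.
Isl1: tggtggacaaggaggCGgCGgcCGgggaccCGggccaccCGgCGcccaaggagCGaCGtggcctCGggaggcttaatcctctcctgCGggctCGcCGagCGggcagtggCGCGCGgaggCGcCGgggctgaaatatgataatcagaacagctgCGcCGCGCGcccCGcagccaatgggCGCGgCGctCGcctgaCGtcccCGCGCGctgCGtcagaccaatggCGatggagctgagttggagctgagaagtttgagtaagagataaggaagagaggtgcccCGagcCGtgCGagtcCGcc
Irx3: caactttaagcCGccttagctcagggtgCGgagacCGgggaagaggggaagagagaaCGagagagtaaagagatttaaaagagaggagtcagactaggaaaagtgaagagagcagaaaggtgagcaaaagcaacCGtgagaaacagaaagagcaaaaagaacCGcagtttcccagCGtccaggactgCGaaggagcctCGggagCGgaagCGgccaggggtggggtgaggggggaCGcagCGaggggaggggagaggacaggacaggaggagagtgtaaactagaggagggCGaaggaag
Pou4f1: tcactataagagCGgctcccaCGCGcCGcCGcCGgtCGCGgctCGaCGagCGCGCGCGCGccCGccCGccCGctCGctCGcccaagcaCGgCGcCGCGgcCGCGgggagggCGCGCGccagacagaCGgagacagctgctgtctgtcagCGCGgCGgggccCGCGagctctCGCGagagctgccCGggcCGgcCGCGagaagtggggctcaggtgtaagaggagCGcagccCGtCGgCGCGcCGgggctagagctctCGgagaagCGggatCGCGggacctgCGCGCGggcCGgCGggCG
Dlx1: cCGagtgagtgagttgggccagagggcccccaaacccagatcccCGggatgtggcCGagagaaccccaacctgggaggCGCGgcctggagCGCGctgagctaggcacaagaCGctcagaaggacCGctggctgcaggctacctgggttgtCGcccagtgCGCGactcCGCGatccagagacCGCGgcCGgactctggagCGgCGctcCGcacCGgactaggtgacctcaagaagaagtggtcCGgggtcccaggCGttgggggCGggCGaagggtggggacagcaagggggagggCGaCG
The Isl1 window (chr13:116309639-116309938, minus strand) held 37 CpGs, a number reached by 5.58% of 32851 RefSeq promoters of that length. Pou4f1 (chr14:104467950-104468249, minus strand) held 57 (0.152% of promoters), Dlx1 (chr2:71529195-71529494, plus strand) held 27 (15.5%), and Irx3 (chr8:91801605-91801904, minus strand) held 14 (36.3%). The letters CAGCTG, an E-box form that binds myogenic and neural bHLH factors and reads the same on both strands, stood once in the Isl1 and once in the Pou4f1 window, in neither of the others, and in 16.3% of all promoters.

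After filtering, 2373 cells remained (918, 547 and 908 in mice 1, 2 and 3), with a median of 857 to 1408 UMIs per cell in the 3 mice, and no barcode was shared between libraries. Clusters were named from marker genes: 1177 CGNP/CGN-like cells (663 proliferating and 514 differentiating), 77 myoid-like cells (27, 20 and 30) defined by muscle genes, and 936 cells outside the Atoh1 lineage, of which 528 were interneurons and their progenitors and 408 were astrocytes, oligodendrocyte lineage, vascular fibroblasts, pericytes, endothelial and myeloid cells. A further 183 cells, 127 of them from mouse 3, stayed unnamed. The targeted gene Eed, summed per mouse and scaled to UMIs per 1000000 UMIs of the group (CPM, the scale of every level below), stood at 30.3, 14.0 and 22.4 in CGNP/CGN-like cells, at 25.02, 0 and 35.2 in myoid-like cells and at 69.6, 79.7 and 45.4 in outside cells. Whether the counted 3′ ends of Eed lie in its deleted part is not given in the sources used here. The muscle marker list summed to between 27559 and 52643 in myoid-like cells with 0 of 25 genes at 0, against 135 to 303 in CGNP/CGN-like and 173 to 340 in outside cells.

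The members were rare transcripts. All 62 together gave 2584 UMIs, 0.839 per 1000 UMIs of the cells kept, and 27 had fewer than 10 UMIs. Their levels added up to 770 ± 78.7 CPM in CGNP/CGN-like cells, to 1247 ± 97.5 in myoid-like cells and to 857 ± 105 in outside cells (mean over 3 mice ± SD). Isl1 alone gave 469 CPM of the myoid-like sum, 23.9 of the CGNP/CGN-like sum and 0 of the outside sum. In CGNP/CGN-like cells 55 members had at least 1 UMI, in myoid-like cells 27 and in outside cells 49. The myoid-like count is bounded by depth, since the 77 cells held 145375 UMIs against 1497053 and 1148262 in the other groups. Each library lists a gene at 0 throughout when it was seen in fewer than 3 barcodes. The members called below were listed above 0 in all 3 libraries, except Isl2 and Pitx3, which only alternatives called. Isl2 was listed at 0 in mouse 1, and Pitx3 in mice 1 and 2.

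The map of mean levels shows where each family stood. PAX3, a factor of the dorsal neural tube, was highest in interneuron progenitors (Pax3 at 446, 415 and 508), NKX2-2, a factor of oligodendrocyte precursors, in the oligodendrocyte lineage (Nkx2-2 at 269, 400 and 255), and FOXC1, MSX1 and TBX18, factors of meninges and vessel walls, in vascular fibroblasts (Foxc1 at 81.2, 222 and 330, Msx1 at 325, 222 and 514). These cells outside the Cre lineage carried factors known for their cell types. Of all 62 members, 9 had their highest mean in myoid-like cells and 9 in differentiating CGNP/CGN-like cells, many of them on a few UMIs.

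**Figure D1:**
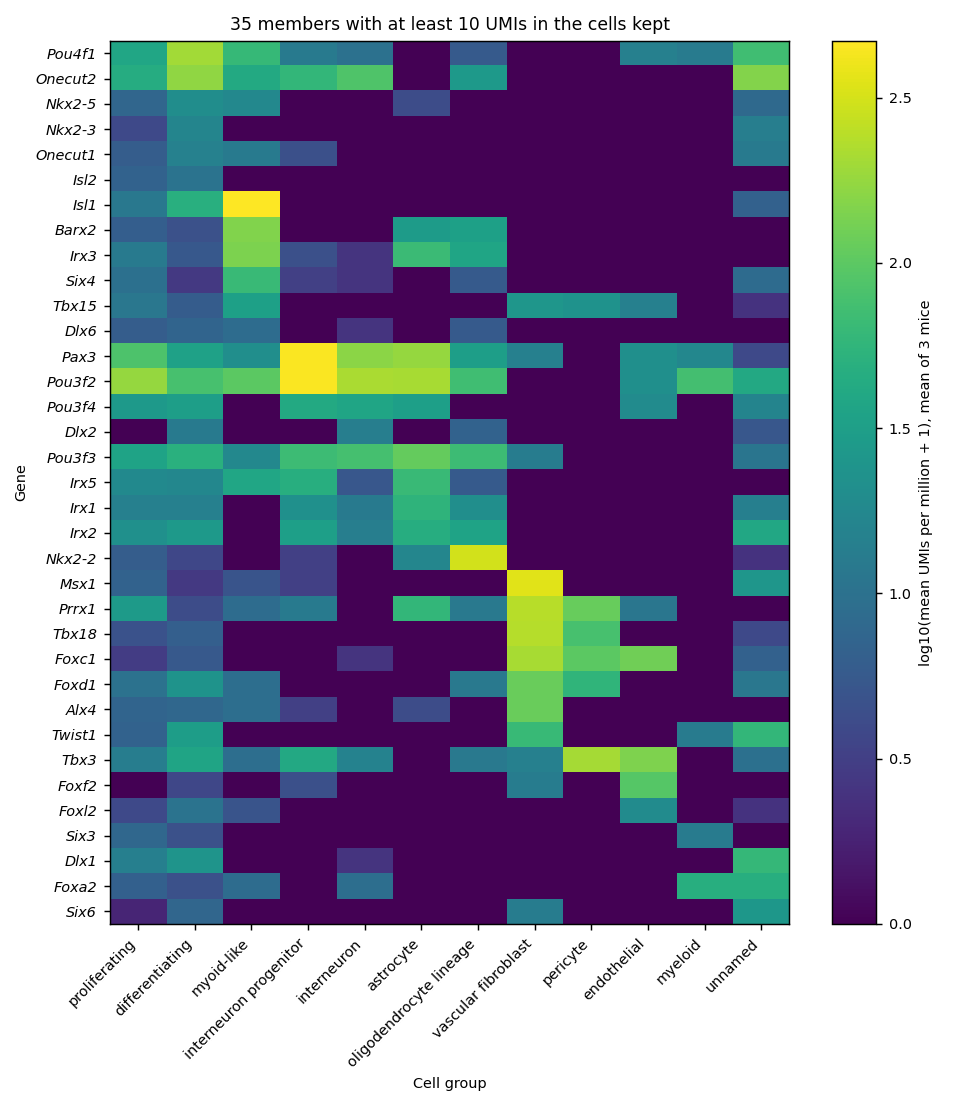
Mean level of the 35 members with at least 10 UMIs (rows) in 12 cell groups (columns), as log10 of CPM plus 1, averaged over 3 mice. Isl1, Barx2, Irx3 and Six4 are brightest in the myoid-like column, Pou4f1 and Onecut2 in the differentiating column, and Msx1, Tbx18 and Foxc1 in the vascular fibroblast column.

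To ask which members were seen in myoid-like cells beyond their level outside the Atoh1 lineage, the summed counts of both groups were compared. Of the 62 members, 23 had the 10 UMIs needed for the test, 6 were higher and 3 lower in myoid-like cells (edgeR quasi-likelihood test, adjusted p under 0.05 over 11365 genes). Over all genes tested, 3.26% were higher and 8.94% lower. The 6 were Isl1, Six4, Barx2, Irx3, Tbx15 and Pou4f1. Of the 11 members with roles in muscle, somites and head mesoderm 5 were tested and 2 were higher and 1 lower, of 26 with roles in brain, spinal cord and sense organs 11 were tested and 3 were higher and 2 lower, of 14 with roles in mesenchyme, limb and skull 7 were tested and 1 was higher, and none of the 9 with roles in heart, gut, kidney and blood had enough UMIs. The median log2 fold change was -1.58 over the 23 members and -0.61 over all genes tested.

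Isl1 (chr13:116298281-116309689), a LIM-homeodomain factor of motor and sensory neurons that also marks second heart field and jaw muscle precursors, stood at 576, 445 and 387 CPM in the myoid-like cells of the 3 mice. It had no UMI in any of the 936 outside cells. The 65 myoid-like UMIs came from 30 of 77 cells, and the groups did not overlap. Against a floor of 3 UMIs over the outside cells, Isl1 was at least 180-fold higher (adjusted p = 3.3e-35, edgeR). After each cell was thinned to 500 UMIs, it was seen in 19.9% ± 1.49 of myoid-like cells (38.0% ± 7.07 unthinned). Unthinned, 0 of 936 outside cells, at a floor of 3 counts, allows a share of cells with a UMI of up to 0.321%. The median depth was 1388 UMIs in myoid-like and 968.5 in outside cells.

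Six4 (chr12:73099609-73113456) encodes a homeodomain factor that acts upstream of the myogenic factors in limb and trunk muscle. It was seen in the myoid-like cells of all 3 mice, at 50.04, 49.5 and 93.9, against 0, 0 and 4.70 in outside cells. The groups did not overlap (log2 fold change 4.43 ± 0.99 SE, adjusted p = 2.1e-04, edgeR), though the myoid-like values rest on 11 UMIs.

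Barx2 (chr9:31846044-31913462), a homeobox factor expressed in muscle precursors, stood at 100, 198 and 141 in myoid-like cells and at 11.1, 6.64 and 4.70 outside (4.00 ± 0.71, adjusted p = 7.1e-07, edgeR). The 4 Barx2 UMIs of mouse 2 came from 1 cell. Irx3 (chr8:91798525-91802067), an Iroquois factor of neural tube and limb patterning, stood at 75.1, 198 and 141 against 13.9, 13.3 and 18.8, again without overlap (2.80 ± 0.63, adjusted p = 2.1e-04, edgeR). Its relative Irx5 did not pass the test, at 75.1, 0 and 35.2 against 27.8, 13.3 and 15.7. Pou4f1 (chr14:104461676-104467999), which encodes the sensory neuron factor BRN3A, stood at 50.04, 49.5 and 82.2 against 8.35, 0 and 12.5 (2.66 ± 0.83, adjusted p = 0.016, edgeR), and lost its call without mouse 1 or mouse 2 (adjusted p = 0.075 and 0.073), against neural outside cells (0.071), at cluster resolution 0.4 (0.11), with at least 1000 UMIs per cell (0.14) and with the members and listed genes kept in the clustering (0.11). Tbx15, a T-box factor of limb skeleton and muscle, rested on 6 UMIs, at 50.04, 0 and 46.9 against 0, 0 and 6.27 (adjusted p = 0.042, edgeR), and with the mouse as a block it did not pass (adjusted p = 0.091), nor without a filter on low counts (0.071), with at least 1000 UMIs per cell (0.059), against non-neural outside cells (0.16) or without mouse 2 (0.078). Without mouse 1 or mouse 3 it had too few UMIs for the test, and DESeq2 gave it no adjusted p.

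The 3 members lower in myoid-like cells were Pax3, Nkx2-2 and Pou3f2. Pax3, the factor that specifies trunk and limb muscle precursors in the embryo and also marks dorsal neural progenitors, stood at 25.02, 0 and 35.2 in myoid-like cells against 195, 92.9 and 235 outside (-2.87 ± 0.63, adjusted p = 1.2e-04, edgeR). Nkx2-2 had no UMI in myoid-like cells, which puts it at least 2.57-fold below the outside cells (adjusted p = 0.013, edgeR), a call lost when mouse 1, mouse 2 or mouse 3 was left out. Pou3f2, a POU factor of neural progenitors, overlapped between the groups, at 25.02, 198 and 70.4 against 234, 120 and 248 (adjusted p = 0.015, edgeR). With only the non-neural outside cells as the comparison, Pax3 and Pou3f2 were no longer called (adjusted p = 0.088 and 0.74), and Foxc1 was. Nkx2-2 and Pou3f2 also lost their calls with DESeq2 and with at least 1000 UMIs per cell, Nkx2-2 with no upper limit on UMIs, and Pou3f2 without mouse 1 (adjusted p = 0.38) or mouse 3 (0.24).

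The myoid-like calls leaned on mouse 3, which held 85197 of the 145375 UMIs. Without mouse 3, 2 members were higher, Isl1 and Barx2, Irx3 was tested and not called (adjusted p = 0.067), and the other 3 no longer had enough UMIs to be tested. Markers of other cell types were counted in the same cells. The vascular fibroblast list summed to between 4202 and 6655 CPM there, but 706 of its UMIs were Igf2 and 7 of its 11 genes, Dcn and Col1a1 among them, were at 0. Of the endothelial list 9 of 11 genes were at 0, Pecam1 and Cdh5 included, with Itm2a giving 105 UMIs, and of the pericyte list 7 of 10 were at 0, Rgs5 included, with Acta2 giving 74. Of the 10 members highest in vascular fibroblasts, Foxc1, Foxc2, Tbx18, Twist1 and Foxl2os had no UMI in myoid-like cells, Prrx1 had 2, and Msx1, Alx4, Foxd1 and Prrx2 had 1 each.

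**Figure D2:**
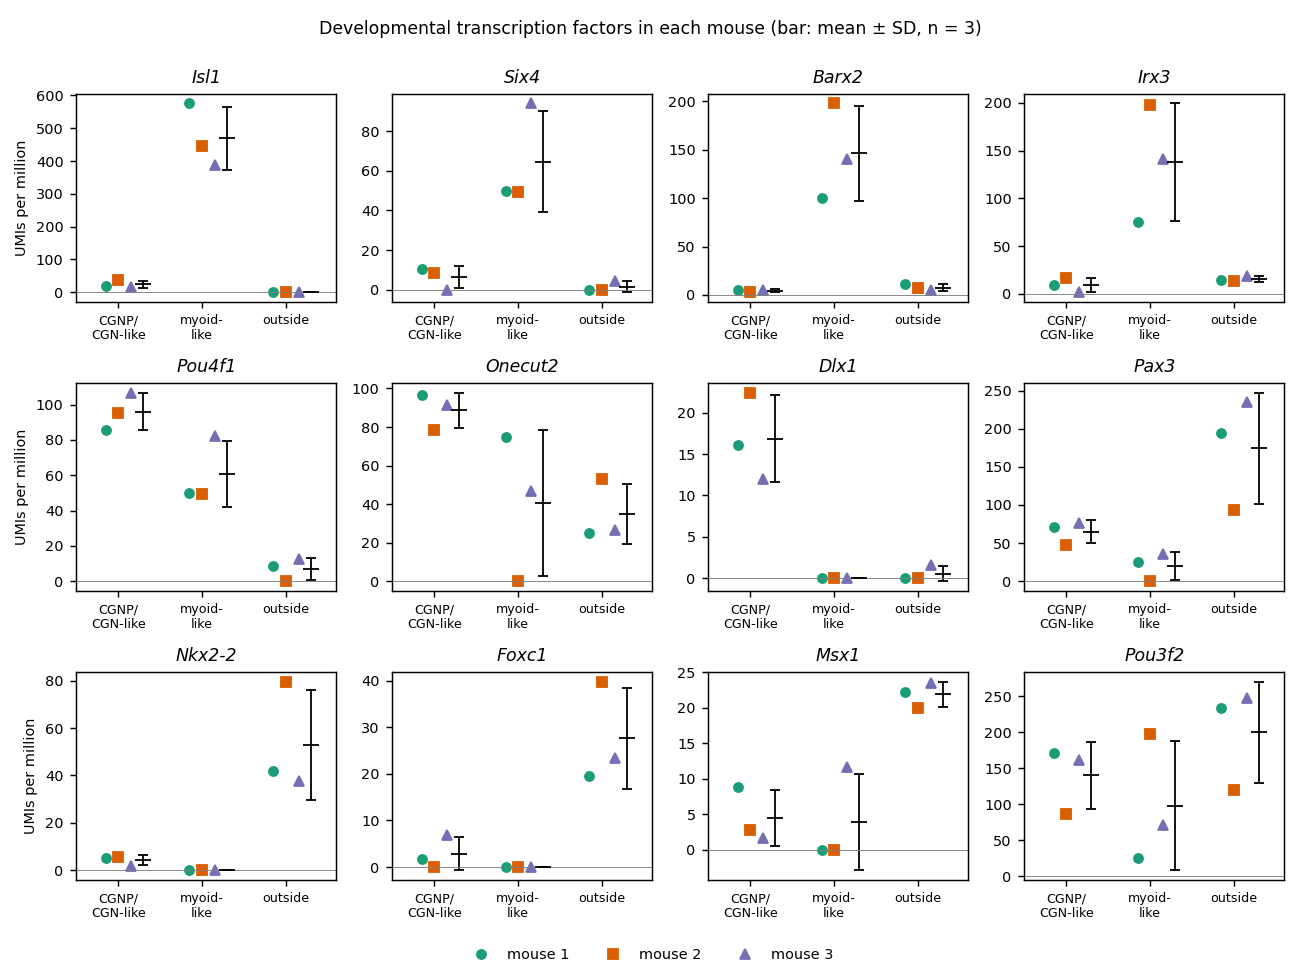
Level of 12 members (CPM, linear axes that differ between panels) in CGNP/CGN-like, myoid-like and outside cells, with 1 symbol per mouse and the mean ± SD of 3 mice beside them. Isl1, Six4, Barx2 and Irx3 are above the other groups in the myoid-like cells of every mouse, and Pax3, Nkx2-2, Foxc1 and Msx1 are highest outside.

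Of the 77 myoid-like cells, 42 had a UMI of at least 1 of the 4 genes Isl1, Six4, Barx2 and Irx3, and 15 had UMIs of at least 2 of them. Isl1 was seen in 30 cells, Barx2 in 11, Irx3 in 10 and Six4 in 7. Isl1 shared 5 cells with Six4, 5 with Barx2 and 4 with Irx3, Barx2 and Irx3 shared 3, and Six4 shared 0 with Barx2 and 0 with Irx3. At this depth a cell without a UMI may still express the gene.

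The same question was asked of CGNP/CGN-like cells. Of the 62 members 32 were tested, 4 were higher and 4 lower (edgeR, adjusted p under 0.05 over 12934 genes), where 2.96% of all genes tested were higher and 7.31% lower. The 4 were Pou4f1, Onecut2, Isl1 and Dlx1, all with roles in brain, spinal cord and sense organs. Of the 26 members with such roles 17 were tested, more than from any other list, and 1 of them was lower. Of 5 tested with roles in muscle, somites and head mesoderm 0 were higher and 3 lower. None was called of 8 tested with roles in mesenchyme, limb and skull. The same held for 2 tested with roles in heart, gut, kidney and blood. The 4 lower members were Nkx2-2, Foxc1, Msx1 and Pax3, factors that the map places in glia, vessels and interneuron progenitors. The median log2 fold change was 0.125 over the 32 members and 0.01 over all genes tested.

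Pou4f1 stood at 85.7, 95.5 and 107 in CGNP/CGN-like cells and at 8.35, 0 and 12.5 in outside cells (3.37 ± 0.41, adjusted p = 7.8e-06, edgeR). Its 144 UMIs came from 105 cells, and in cells thinned to 500 UMIs it was seen in 4.17% ± 0.529 of CGNP/CGN-like and 0.365% ± 0.32 of outside cells (9.24% and 0.832% unthinned), at median depths of 1028 and 968.5. Onecut2, a cut-homeodomain factor of early-born neurons, stood at 96.4, 78.6 and 91.3 against 25.05, 53.1 and 26.6 (1.58 ± 0.31, adjusted p = 0.0017, edgeR). Onecut2 was also present in interneurons, at 90.6, 99.5 and 64.0, and against neural outside cells alone the difference did not pass (adjusted p = 0.20).

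Isl1 stood at 19.6, 36.5 and 15.5 in CGNP/CGN-like cells, from 33 UMIs in 29 cells, at least 9.14-fold above the outside cells (adjusted p = 0.0014, edgeR). Dlx1, a factor of forebrain interneurons, stood at 16.1, 22.5 and 12.05 against 0, 0 and 1.57 (3.92 ± 0.99, adjusted p = 0.012, edgeR). It lost its call without mouse 1 (adjusted p = 0.12), without mouse 2 (0.085), against neural outside cells (0.086), with DESeq2 (0.063) and with at least 1000 UMIs per cell (0.15). Onecut2 lost its call without mouse 1 and at cluster resolution 0.4, Foxc1 without mouse 1 or mouse 2, and Msx1 without any 1 of the 3, with DESeq2 and at resolution 0.4. Against non-neural outside cells alone Pax3 was no longer called (adjusted p = 0.47, edgeR), and Foxf2, Prrx1 and Tbx18 were. With the mouse as a block 7 members were higher, Isl2, Nkx2-3 and Nkx2-5 being the additional ones, and 5 lower, with Pou3f2 added.

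Isl2 and Nkx2-3 had 11 UMIs each in CGNP/CGN-like cells and none in outside cells. Isl2, a relative of Isl1 in motor neurons, stood at 0, 5.62 and 15.5, with 9 of its 11 UMIs from mouse 3, and the 2 UMIs left without that mouse are under the floor of 3. Nkx2-3, a factor of gut and spleen mesoderm, stood at 7.14, 8.42 and 6.89 in the 3 mice, at least 2.86-fold above the outside cells. Nkx2-5, the cardiac homeobox gene, stood at 7.14, 5.62 and 22.4 against 0, 0 and 1.57 (adjusted p = 0.058, edgeR, and 0.0098 with the mouse as a block). Mouse 3 gave 13 of its 19 UMIs. It was called as well without a filter on low counts and with no upper limit on UMIs. The same held with the members and listed genes kept in the clustering. The other heart factors were at the limit of detection: Gata4 had 6 UMIs in CGNP/CGN-like cells, 1 in myoid-like and 0 in outside cells, and Hand2 had 4, 0 and 0. Twist1, a bHLH factor of mesenchyme, stood at 23.2, 8.42 and 12.05 against 2.78, 13.3 and 1.57, and passed the test against neural outside cells alone, as did Foxd1 and, as a lower member, Pou3f2, but not against all outside cells.

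RNA set free from broken myoid-like cells can reach other droplets, and its part in these counts was not tested. The UMIs of the muscle list in CGNP/CGN-like cells, at the ratio found in the myoid-like cells of each mouse, came with 3.58 UMIs of Isl1, where 33 were counted. In outside cells the same ratio gave 3.00 UMIs of Isl1, where 0 were counted. For Barx2 and Irx3 the outside cells held 8 and 19 UMIs against 0.872 and 0.814 at that ratio. The interneuron marker list summed to between 140 and 178 in CGNP/CGN-like cells and to between 1778 and 2220 in neural outside cells.

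Myoid-like cells were then compared with CGNP/CGN-like cells directly, which tests whether the levels of both groups differ from each other. Of 25 members tested 4 were higher in myoid-like cells and 0 were lower (edgeR, adjusted p under 0.05 over 11183 genes), against 3.57% of all genes higher and 7.19% lower. At an unadjusted p under 0.05 (edgeR), 5 were higher and 5 lower. The share of all genes at that threshold was not counted. DESeq2 also called 0 lower. The 4 were Isl1 (4.12 ± 0.39, adjusted p = 4.0e-24, edgeR), Barx2 (4.58 ± 0.69), Irx3 (3.74 ± 0.65) and Six4 (3.34 ± 0.80), the others with adjusted p between 1.6e-09 and 5.9e-04. Isl1 did not overlap between the groups, at 387 to 576 against 15.5 to 36.5, nor did Barx2, Irx3 and Six4. Without mouse 3 the count was 3, with Isl1, Barx2 and Irx3 called and Six4 not (adjusted p = 0.42). Pou4f1, at 60.6 ± 18.7 in myoid-like and 96.0 ± 10.6 in CGNP/CGN-like cells (n = 3), did not pass this test.

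**Figure D3:**
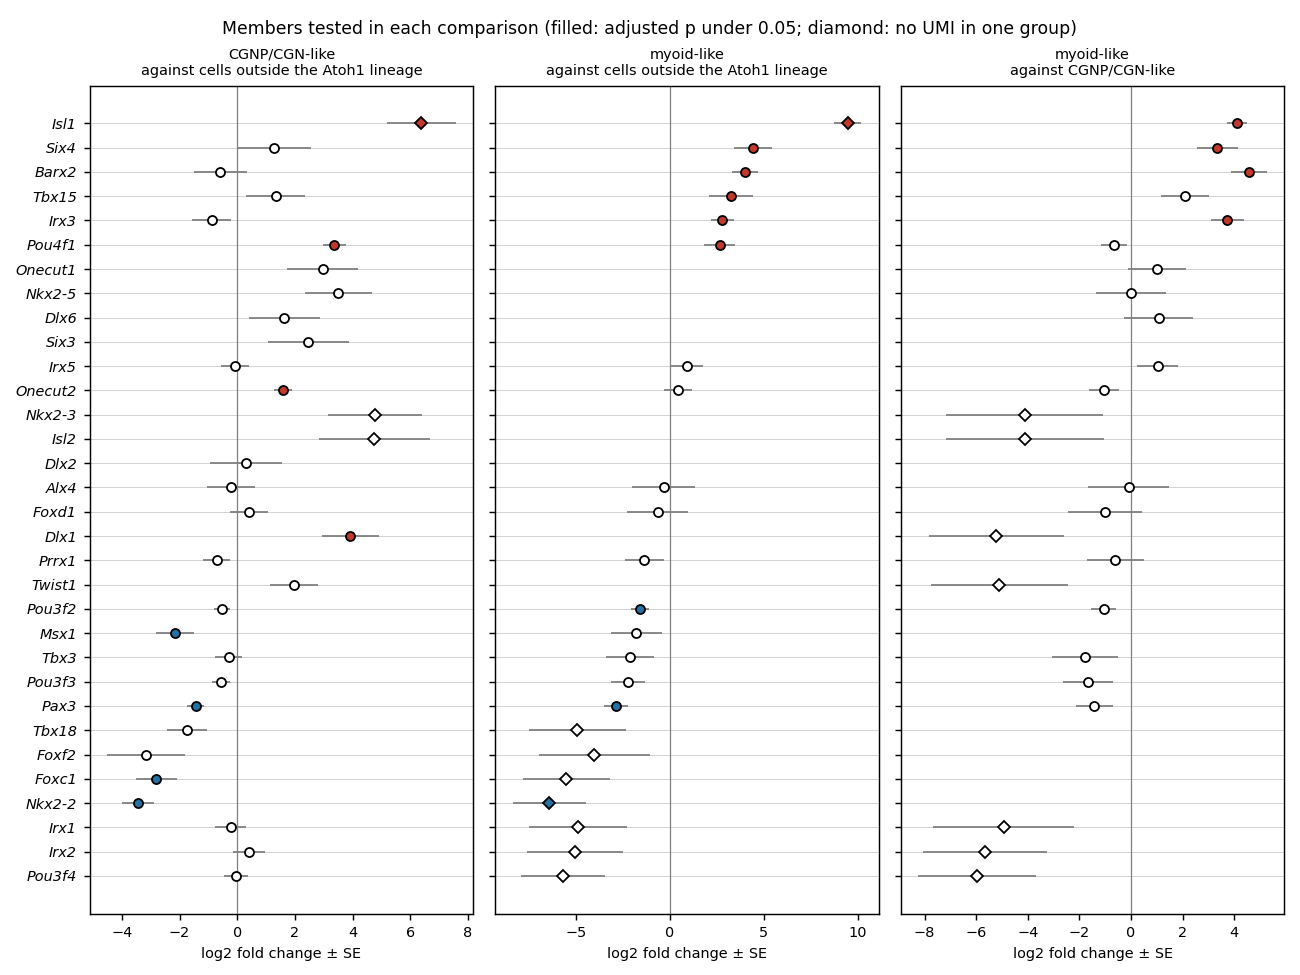
Fitted log2 fold change ± SE of the 32 members tested in at least 1 of 3 comparisons (horizontal axes, each with its own range). Filled symbols passed an adjusted p under 0.05, red when higher and blue when lower in the first group, and diamonds mark a gene with no UMI in 1 group, whose fitted value is not a bound. Isl1 is filled red in all 3 comparisons, Six4, Barx2 and Irx3 in the 2 with myoid-like cells.

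Within the CGNP/CGN-like cells, Pou4f1, Onecut2, Isl1 and Twist1 stood higher at the differentiating stage and Pou3f2 and Prrx1 at the proliferating stage. Proliferating cells were compared with differentiating cells, and of 22 members tested 2 were higher in proliferating cells and 4 in differentiating cells (edgeR, adjusted p under 0.05 over 10823 genes), against 8.19% and 7.67% of all genes tested. Of the 13 tested members with roles in brain, spinal cord and sense organs, 3 were higher in differentiating cells and 1 in proliferating cells. The interneuron marker list summed to 357, 282 and 242 CPM in differentiating and to 88.5, 81.9 and 65.2 in proliferating cells, and the unipolar brush cell list to 79.99, 177 and 156 against 34.9, 8.62 and 23.7, and their part in these calls was not tested. Pou4f1 stood at 208, 193 and 193 in differentiating and at 24.1, 43.1 and 44.5 in proliferating cells (log2 fold change, proliferating against differentiating, -2.40 ± 0.31, adjusted p = 4.3e-07, edgeR). Onecut2 stood at 197, 153 and 152 against 45.6, 38.8 and 47.4 (-1.88 ± 0.30, adjusted p = 1.8e-05, edgeR). Isl1 followed at 32.0, 80.6 and 28.7 against 13.4, 12.9 and 5.93 (-1.94 ± 0.60, adjusted p = 0.023, edgeR), and Twist1 at 48.0, 16.1 and 24.6 against 10.7, 4.31 and 2.96 (-2.15 ± 0.72, adjusted p = 0.036, edgeR).

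The members higher in proliferating cells were Pou3f2, at 204, 116 and 211 against 107, 32.2 and 94.5 (1.14 ± 0.31, adjusted p = 0.0098, edgeR), and Prrx1, a paired-related factor of limb and skull mesenchyme, at 34.9, 30.2 and 17.8 against 5.33, 0 and 4.11 (2.81 ± 0.84, adjusted p = 0.019, edgeR). With the mouse as a block, Pax3 was also higher in proliferating cells (adjusted p = 0.010) and Tbx3 in differentiating cells (0.042). Pax3 was called as well without mouse 3, without a filter on low counts, at cluster resolution 1.2, with no upper limit on UMIs and with the members and listed genes kept in the clustering. Isl1 and Twist1 lost their calls when any 1 mouse was left out, Prrx1 without mouse 1 or mouse 2 (adjusted p = 0.13 and 0.11) and Pou3f2 without mouse 1 (0.073). With at least 1000 UMIs per cell Onecut2, Isl1, Twist1 and Prrx1 were not called, nor was Isl1 with DESeq2 (adjusted p = 0.077) or Twist1 with no upper limit on UMIs (0.091).

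**Figure D4:**
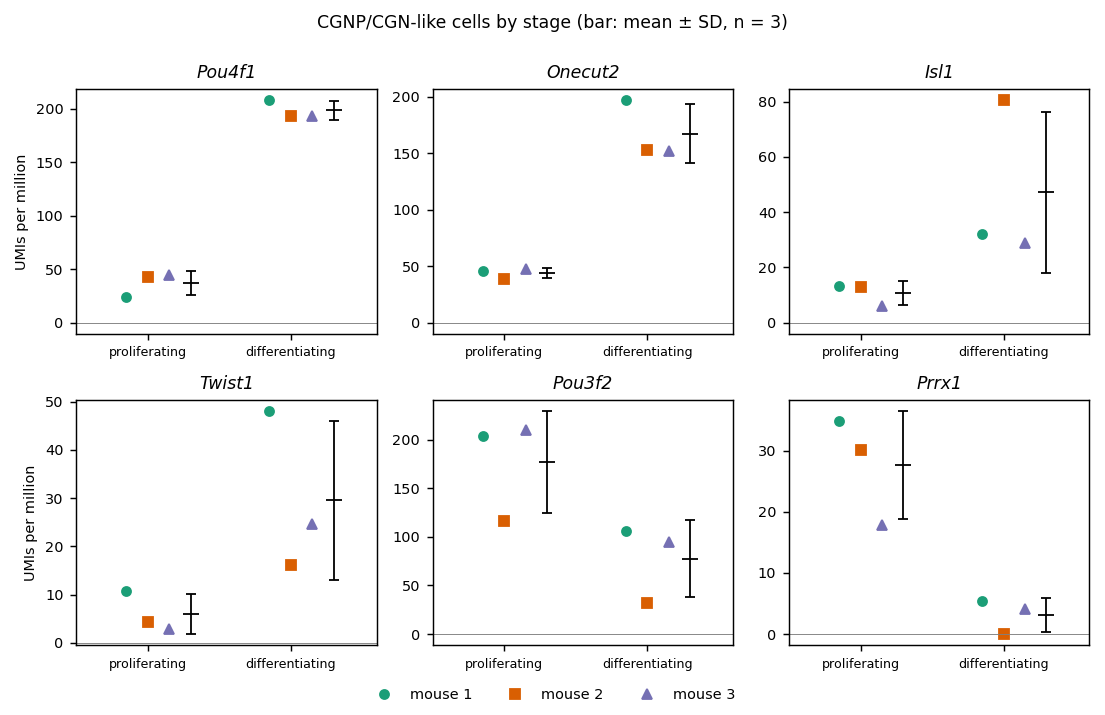
Level of the 6 members called between proliferating and differentiating CGNP/CGN-like cells (CPM, linear axes that differ between panels), with 1 symbol per mouse and the mean ± SD of 3 mice. Pou4f1, Onecut2, Isl1 and Twist1 are higher in the differentiating cells of all 3 mice, and Pou3f2 and Prrx1 in the proliferating cells.

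Other developmental genes were counted on fixed lists beside the members. Of 30 Hox genes, the factors of trunk position, 28 were tested in CGNP/CGN-like against outside cells and 17 were higher and 0 lower, with Hoxb8 at 130, 110 and 122 against 5.57, 13.3 and 1.57 (4.72 ± 0.44, adjusted p = 3.0e-07, edgeR). In differentiating against proliferating cells 21 of 28 Hox genes were higher. In myoid-like cells only 6 Hox genes had enough UMIs against the outside cells, with 2 higher, Hoxd10 and Hoxd3, and against CGNP/CGN-like cells 7 of 29 were lower and 1, Hoxd10, higher. Of 33 other homeobox, LIM and bHLH factors, 28 were tested in CGNP/CGN-like against outside cells and 10 were higher and 5 lower. Tlx3, a sensory neuron factor, stood at 39.3, 16.8 and 13.8 with no UMI outside. In myoid-like cells 1 of 20 tested was higher and 7 were lower against outside cells. Against CGNP/CGN-like cells 0 of 24 were higher and 8 lower.

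The myogenic factors and their partners, a list of 16, were tested for 12 genes and 6 were higher and 1 lower in myoid-like than in outside cells. Myog, which drives the fusion of myoblasts, stood at 3603, 5294 and 3979 against 8.35, 19.9 and 9.40, and Myod1, which commits cells to muscle, at 325, 247 and 317 with no UMI outside. Lbx1, a factor of migrating limb muscle precursors and of dorsal interneurons, had no UMI in myoid-like cells and stood at 114, 113 and 68.9 outside. In CGNP/CGN-like cells Myod1 was higher too, at 16.1, 59.0 and 49.9 with no UMI outside. It stood higher in proliferating cells (64.6 ± 37.3) than in differentiating cells (4.46 ± 4.10, n = 3, adjusted p = 3.9e-04, edgeR). The study cites earlier work in which wild-type P7 cerebella held cells with MYOD1 that did not induce MYOG. Of the 11 PRC2 subunits 10 were tested, and Eed alone was lower in CGNP/CGN-like than in outside cells (-1.35 ± 0.37, adjusted p = 0.022, edgeR). Ezh2 alone was lower in myoid-like than in CGNP/CGN-like cells (-1.62 ± 0.37, adjusted p = 2.4e-04, edgeR). It was also lower in myoid-like than in outside cells (-1.13 ± 0.39, adjusted p = 0.035, edgeR). Ezh2, Suz12 and Rbbp7 were higher in proliferating than in differentiating cells (Ezh2 0.82 ± 0.21, adjusted p = 0.0054, edgeR).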

How the data were processed

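Cells came from 3 Eed cKO mice, from the cerebellum on a single side of the midline of each, dissociated with papain. The authors deposited raw UMI counts per gene and barcode, and the labels' processing notes name STAR and mm10. In each table a gene seen in fewer than 3 barcodes is 0 throughout. Barcodes with at least 500 UMIs, at least 200 genes, at most 10% mitochondrial UMIs and no more than 4 SD above the median were kept. The upper limit stood for doublets, and no doublet caller was run. The cells were clustered in Seurat 5.3.0 (sctransform 0.4.2, 3000 variable genes, 2942 of them left once members and listed genes were taken out, 15 components, resolution 0.8).

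A cluster was named when at least 3 markers of a type stood in at least 10% of its cells at 2 times the level of other cells (after adding 20 CPM) and no other type had more, either of these or among the 10 genes of largest fold (stages of the CGNP/CGN lineage excepted). That cell cycle genes do not count for proliferating CGNPs where another type leads was set after the clusters were seen. Members, gene lists and tests were chosen with earlier results of these data known. Of the rows found by the name rule, 2 are not reported here.

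UMIs of each group were added up within a mouse, and edgeR 4.0.16 was run on the sums (quasi-likelihood, TMM, at least 10 UMIs over the 6 sums, Benjamini-Hochberg over all genes). Sums with the same number come from the same mouse and so are pairs. Their deviations correlated at 0.228 to 0.279 for CGNP/CGN-like and outside cells, 0.0569 to 0.117 for myoid-like and outside cells, 0.0629 to 0.113 for myoid-like and CGNP/CGN-like cells and 0.131 to 0.18 for the stages. On simulated counts 57% of 4-fold changes were called in CGNP/CGN-like against outside cells, 22% in myoid-like against outside cells, 34% in myoid-like against CGNP/CGN-like cells and 49% between stages. For 2-fold changes these shares were 13%, 2%, 3% and 13%, and 6.67%, 0%, 9.76% and 4.62% of the calls were false. The changed genes were drawn at random from all genes tested, while most members were rare transcripts, and no mouse effect was simulated. These shares are therefore not the rates of the member tests. A count of 0 was given a floor of 3 counts, which covers counting error only.

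Named members were those called, the fixed muscle, heart and mesenchyme factors where listed (Pax7, Tbx1 and Twist2 were not listed), and the 10 with the highest mean in each group. From each other list at most 4 called genes per comparison could be named. Alternatives were DESeq2 1.42.0, RLE scaling, other count filters, other cell filters and resolutions, the mouse as a block, each mouse left out, and neural or non-neural outside cells alone. Genes on the other strand overlap the called members Barx2, Dlx1, Irx3, Nkx2-2, Tbx15 and Prrx1, and Isl2, Tbx3, Foxf2, Tbx18 and Pitx3, which alternatives called, and the strand setting of the counting is not given in the sources used here.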

Additional observations from a re-analysis of the deposited data

Results flagged for a closer look

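Outside cells were the common control of 2 contrasts, and the direct test of myoid-like against CGNP/CGN-like cells asks whether they differ. For 4 members it passed, with log2 fold changes of 4.12 for Isl1, 4.58 for Barx2, 3.74 for Irx3 and 3.34 for Six4. The direction held in all 3 mice for each of them.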

How the results depend on the processing

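In CGNP/CGN-like against outside cells, 2 members were higher and 2 lower with edgeR's filterByExpr, 7 were higher with the mouse as a block, 2 were lower against neural outside cells, and leaving out 1 mouse gave 2 to 4 higher and 2 to 3 lower. In myoid-like against outside cells, 2 were higher with filterByExpr, 3 higher and 1 lower with at least 1000 UMIs per cell, 1 lower with DESeq2, and leaving out 1 mouse gave 2 to 4 higher and 1 to 2 lower. With no upper limit on UMIs, Pou3f3 and Pou3f4 were also called in myoid-like against outside cells. In myoid-like against CGNP/CGN-like cells, that setting added calls of Pou3f4 and Tbx15, with 1 member lower. Leaving out 1 mouse gave 3 to 4 higher and 0 to 1 lower there. Between stages, 1 was higher and 2 lower with DESeq2 and with filterByExpr, 1 higher and 1 lower with at least 1000 UMIs, and leaving out 1 mouse gave 0 to 3 higher and 2 lower each time. The stricter filters and fewer mice tested fewer members. At resolution 0.4 no cluster was named differentiating, so that stage comparison could not be made. Against non-neural outside cells alone Pou3f2 (0.60) and Lbx1 (0.96) in CGNP/CGN-like and Lhx5 (0.17) in myoid-like cells changed sign; the cause was not tested. Of 1076 log2 fold changes of named genes, 933 kept their direction and side of the threshold, 125 lost the call and 15 gained it. Beyond the members named in the report, the mouse as a block changed the calls of Hoxb5 (-3.08) and Neurod6 (-6.14) in myoid-like against CGNP/CGN-like cells. Depth limits the myoid-like comparisons, since a gene needs 20.6 CPM there to reach 3 UMIs.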

Other observations

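The 183 cells left unnamed, 43, 13 and 127 in the 3 mice, were led by Syt4, Pcp4, Snhg11 and Calb1 and entered no comparison. They carried 9 markers of differentiating CGNP/CGN against 5 of Purkinje cells, but none of the 9 stood among their 10 genes of largest fold, where Purkinje markers did, and so they were given no name. With no upper limit on UMIs a cluster led by Pcp4, Pcp2 and Calb1 (162 cells, 37, 6 and 119 in the 3 mice) had 7 Purkinje markers against 5 and was named Purkinje. Their differentiating CGNP/CGN list summed to 9819, 13146 and 10668 CPM, against 11582 to 14205 in differentiating CGNP/CGN-like cells, and their Purkinje list to 3733, 722 and 4401, against 282 to 427. Onecut2 stood there at 181, 145 and 120, against 197, 153 and 152 in differentiating CGNP/CGN-like cells, Pou4f1 at 0, 145 and 68.8, against 208, 193 and 193, and Twist1 at 45.3, 72.2 and 55.9, against 48.0, 16.1 and 24.6. Dlx1 stood at 0, 145 and 34.4. In mouse 2 these values rest on 13 cells. Foxa2, a factor of midline and gut, had 8 of its UMIs in these cells, 7 in CGNP/CGN-like, 2 in myoid-like and 2 in outside cells.

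Of the 62 members, 13 had no UMI in outside cells. Every member had a UMI in the cells kept, so these 13 had to be seen in other groups. Each had at least 1 UMI in CGNP/CGN-like or myoid-like cells, some on very few, as Dlx3 with 1 and Alx1 with 2. The outside cells held 1148262 UMIs and the CGNP/CGN-like cells 1497053. The share of all genes at 0 in either group was not counted. In the other direction, 7 members had none in CGNP/CGN-like cells, Gsx2 with 8 UMIs outside, Tbx2 with 6 and Gata2 with 5 among them. Pitx3, a lens and muscle factor, had 5 UMIs in CGNP/CGN-like and 4 in myoid-like cells, all of them in mouse 3. The libraries of mice 1 and 2 list it at 0 throughout.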
